A study of Mus musculus with 2 samples.

Results

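Saa1, Saa2, Saa3, Lcn2 and Hp encode acute phase proteins, and 5 of the 32285 genes in the count tables carry these symbols. They were chosen by symbol, after their levels by cell type and diet in these libraries were known, so the diet differences given here describe the genes that were picked and test nothing. The cells were live eYFP+ cells sorted from the stromovascular fraction (SVF) of perigonadal white adipose tissue (gWAT) of male Cyp1a1Cre x R26LSL-eYFP mice. In these fate reporter mice Cre is driven by the Cyp1a1 promoter, a target of the aryl hydrocarbon receptor (AHR), and its action is permanent. An eYFP+ cell, or a cell it descends from, thus had an active Cyp1a1 promoter at collection or at some time before. One group ate low-fat food (LFD, 10% fat) and the other high-fat food (HFD, 60% fat), both purified diets given for 12 weeks. Both groups had also been injected with FICZ, which activates AHR, at a dose of 10 mg/kg 5 days ahead of tissue collection. There was 1 library per diet, made from pooled mice, no cell is tied to a mouse, and eYFP- cells and mature adipocytes were not sequenced, so diet and library cannot be told apart and no p-value was computed.

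The acute phase response is the change in plasma proteins that follows infection or injury. The cytokines IL6, IL1 and TNF drive it, largely through STAT, NF-kB and C/EBP transcription factors, and the liver is its main site. Serum amyloid A proteins travel on high-density lipoprotein. In mice, Saa1 and Saa2 are chiefly liver genes, whereas Saa3 is the form made outside the liver, including in adipose tissue and macrophages. Lipocalin 2, the product of Lcn2, binds bacterial siderophores and is stored in neutrophil granules, and haptoglobin, the product of Hp, captures free haemoglobin. Lipocalin 2 and haptoglobin are known to be made in adipose tissue as well.

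Saa1, Saa2 and Saa3 lie in 1 cluster on chromosome 7 (GRCm38, GENCODE annotation). Saa3 is at chr7:46711998-46715700 on the minus strand, Saa1 at chr7:46740497-46742980 on the minus strand and Saa2 at chr7:46751790-46754313 on the plus strand. Lcn2 is at chr2:32384633-32388252 and Hp at chr8:109575128-109579172, both on the minus strand, and all 5 are protein coding. The sequences upstream of 4 start sites are shown because C/EBP and NF-kB factors are known to act on acute phase promoters, and because Saa1 and Saa2 are near copies of each other there and Saa3 is not. Each line runs 5′ to 3′ on the gene's own strand, from 250 to 61 bases before the RefSeq start site (GRCm38.p6), and capitals mark matches to TTNNGNAA, the letters searched for C/EBP on both strands.
Saa3, chr7:46715737-46715926, minus strand: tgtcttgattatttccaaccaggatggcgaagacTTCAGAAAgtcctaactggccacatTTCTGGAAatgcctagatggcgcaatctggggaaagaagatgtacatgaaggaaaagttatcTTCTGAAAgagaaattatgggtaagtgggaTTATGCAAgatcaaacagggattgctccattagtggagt
Lcn2, chr2:32387800-32387989, minus strand: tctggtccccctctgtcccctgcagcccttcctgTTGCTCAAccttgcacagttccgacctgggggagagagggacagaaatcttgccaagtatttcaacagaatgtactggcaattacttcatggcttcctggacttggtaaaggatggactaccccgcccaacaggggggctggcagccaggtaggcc
Saa1, chr7:46743041-46743230, minus strand: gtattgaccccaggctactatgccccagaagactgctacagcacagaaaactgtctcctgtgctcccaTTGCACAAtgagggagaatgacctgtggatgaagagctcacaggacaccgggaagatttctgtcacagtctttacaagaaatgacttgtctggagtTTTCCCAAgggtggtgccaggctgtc
Saa2, chr7:46751583-46751772, plus strand: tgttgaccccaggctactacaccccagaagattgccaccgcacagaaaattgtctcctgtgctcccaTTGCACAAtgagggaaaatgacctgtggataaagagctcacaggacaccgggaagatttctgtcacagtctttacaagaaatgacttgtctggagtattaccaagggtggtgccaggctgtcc
Saa3 had 4 C/EBP matches, starting at -216, -191, -129 and -99 from the start site. Saa1 had 2, at -182 and -86, while Lcn2 had 1 at -216 and Saa2 had 1 at -183. In the windows of 300 bases from RefSeq, 40.7% of 32817 promoters held at least 1 such match, so holding one is common. NF-kB was searched as GGGNNTTCC on both strands, which 5.82% of all windows held and none of the 4 did. Sites of another length or spelling could not be found by this search, so it does not show that NF-kB sites are absent. Of the printed Lcn2 bases, 139 fall in an exon of a longer annotated Lcn2 transcript. The Saa1 and Saa2 sequences were 93.2% identical over these bases and Saa3 was 53.7% identical to Saa1. The longest Saa1 and Saa2 transcripts were 96.7% identical and shared 13.3% of their 90-base stretches, so reads of this pair may be divided wrongly between them. No 90-base stretch of the longest Saa3 transcript, of 2200 bases, was shared with Saa1, Saa2 or Saa4. The Saa1 and Saa2 transcripts compared had 2446 and 2443 bases, most of the length of their genes. Spliced transcripts and their 3′ ends were not compared separately. The promoter table used here had no entry for Hp.

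The LFD library held 114311020 UMIs (unique molecular identifiers, each counting 1 captured molecule) in 11281 barcodes, and the HFD library 119498750 in 9631. After quality filters and doublet removal 9294 LFD and 7879 HFD cells were left, with medians of 10214 and 12709 UMIs per cell. The 2 libraries had 21 barcodes in common. Clusters built without the acute phase genes gave 14 named types from marker lists and 1 unnamed cluster of 55 LFD and 88 HFD cells led by haemoglobin and epididymal genes. A cluster carries the ending "-like" where its markers gave it that name. Levels are UMIs per 1000000 UMIs (CPM) summed over the cells of a type in a library, and brackets give 95% intervals, which cover counting error only.

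The labels of the cells that carry most of this signal need care. The mesothelial-like and cycling mesothelial-like clusters expressed 10 of 11 mesothelial (keratin-high) markers and 7 of 8 listed Wt1-positive stromal markers each, counting a marker where at least 10% of cells had it and its level was over 2 times that of the median cluster. The largest cluster, with 3013 LFD and 1292 HFD cells, met the same bar for 7 of 8 Wt1-positive stromal markers and 11 of 15 progenitor markers, and its leading genes were Meg3, Col1a1 and Dcn. It is called the keratin-low Wt1+ cluster here and is given no cell type name. The progenitor-like cluster, with 215 LFD and 574 HFD cells, met it for all 15 progenitor markers and 7 of 8 Wt1-positive stromal markers. Wt1, a transcription factor of mesothelium and visceral fat stroma, was not exclusive to the Wt1+ clusters, since 78.6% of LFD and 76.3% of HFD progenitor-like cells had a Wt1 UMI.

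Saa3 was abundant in all 4 stromal clusters on LFD and was lower on HFD in each of them. In the keratin-low Wt1+ cluster its level was 17249 CPM on LFD and 5258 on HFD, a ratio of 0.305 (0.303 to 0.307). The mesothelial-like cluster had 10599 and 3146 CPM, a ratio of 0.297 (0.295 to 0.299), and the cycling mesothelial-like cluster 9149 and 2725 CPM, a ratio of 0.298 (0.294 to 0.301). The 3 Wt1+ clusters thus had nearly the same ratio. Their keratin-high mesothelial markers, 11 genes with none at 0, were higher on HFD, summing to 303 and 857 CPM in the keratin-low Wt1+ cluster, 1608 and 2464 CPM in mesothelial-like and 841 and 1528 CPM in cycling mesothelial-like cells. The part of this shift in the Saa3 ratios was not tested. Progenitor-like cells had 9696 CPM (9569 to 9825) on LFD, close to the mesothelial-like levels, and 472 CPM (455 to 490) on HFD. Their ratio of 0.0487 (0.0468 to 0.0507) lay outside the intervals of the 3 Wt1+ clusters. With cells of any cluster gated on marker UMIs, the progenitor ratio was 0.0847 (0.0801 to 0.0896), beside 0.270 (0.269 to 0.272) in gated Wt1+ cells. The Wt1+ gate asked only for a Wt1 UMI with no Ptprc or Pecam1 UMI, so progenitor-like cells can pass it. The progenitor gate left out cells with a Wt1 UMI, which 169 LFD and 438 HFD progenitor-like cells had. The gated groups therefore differ from the clusters. Progenitor-like cells took rank 3 of 14 types on LFD and rank 4 on HFD, where their interval overlapped that of neutrophil-like cells. The keratin-low Wt1+ cluster had the highest level on both diets.

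Together the 3 Wt1+ clusters held 97.1% of the Saa3 UMIs of the LFD library and 97.9% of those of the HFD library. Per cell, the median was 153 Saa3 UMIs on LFD and 63 on HFD in the keratin-low Wt1+ cluster, and 121 and 32 in mesothelial-like cells. In progenitor-like cells it was 52 on LFD and 0 on HFD. Most progenitor-like cells on HFD thus carried no or very few Saa3 molecules. Their mean was 102.8 UMIs per cell on LFD and 4.92 on HFD, and the top 10% of cells held 41.6% of Saa3 UMIs on LFD and 79.2% on HFD. At least 100 Saa3 UMIs were found in 33.0% of LFD and 0.348% of HFD progenitor-like cells, against 64.0% and 33.2% of keratin-low Wt1+ cells.

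**Figure D1:**
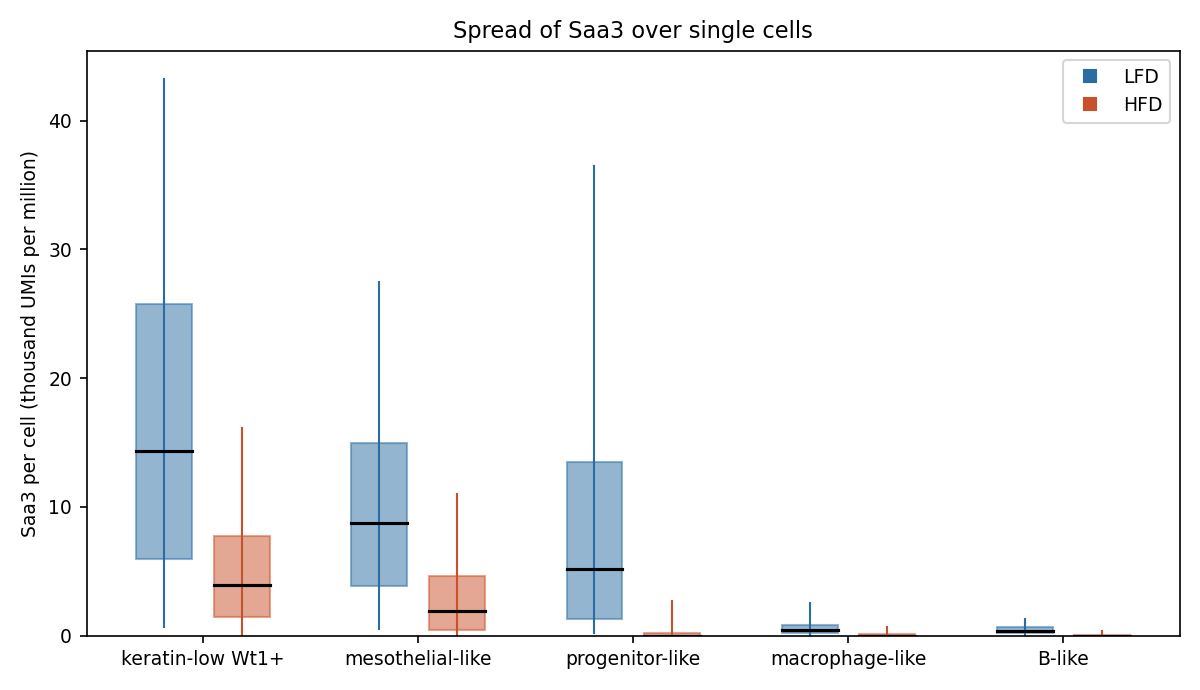
Saa3 level of single cells, in units of 1000 CPM, by cell type and diet. Boxes span the 25th to 75th percentile of cells, whiskers the 5th to 95th, and black lines are medians. The progenitor-like box lies near 0 on HFD, while the Wt1+ boxes stay above it.

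Shares of cells with a UMI depend on depth, so each cell was also thinned to 2000 UMIs. Without thinning 99.1% of LFD and 49.0% of HFD progenitor-like cells had a Saa3 UMI, and with thinning 86.1% (80.7 to 90.5) and 24.1% (20.6 to 27.9). Thinning left out 6 LFD and 22 HFD cells shallower than this. B-like cells, which should lack Saa3, gave 81.3% and 25.1% without thinning and 58.2% (54.9 to 61.5) and 12.5% (10.1 to 15.2) with it. Median total UMIs were 10360 and 10204 in progenitor-like and 3716 and 4021 in B-like cells. The B-like shares were taken as the background from RNA free in the suspension, which was assumed and not measured in empty droplets, and the progenitor-like shares were above them on both diets.

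Saa3 in macrophage-like cells was low, at 672 CPM (641 to 705) on LFD and 153 CPM (140 to 167) on HFD, a ratio of 0.228 (0.206 to 0.251). This was 1676 UMIs in 590 LFD cells and 525 UMIs in 529 HFD cells. Thinned shares of cells with a UMI were 61.7% (57.3 to 66.0) and 15.7% (12.6 to 19.2), at medians of 4280 and 6226 total UMIs. These intervals overlapped those of B-like cells on both diets, so at this depth the shares of the 2 types were not told apart. The mean was 2.84 Saa3 UMIs per macrophage-like cell on LFD and 0.992 on HFD, compared with 1.77 and 0.304 per B-like cell. Stromal transcripts in these cells were counted as well. Per UMI of Col1a1, Col1a2, Dcn and Meg3, macrophage-like cells had 0.991 Saa3 UMIs on LFD and 0.756 on HFD. The same ratio was 0.903 and 0.236 in B-like, 0.834 and 0.202 in plasma cell-like and 0.674 and 0.166 in endothelial-like cells. It was 0.6 and 0.401 in cycling B-like and 1.22 and 0.337 in neutrophil-like cells. Macrophage-like cells on HFD thus stood above the other named non-stromal types by this measure, but on LFD neutrophil-like cells were higher. Subtracting the lowest mean per cell over the types, an alternative chosen after seeing the data, moved the macrophage-like ratio to 0.477, still below 1. The progenitor marker list of 15 genes summed to 949 CPM on LFD and 385 CPM on HFD in macrophage-like cells, with none at 0, and its part in the result was not tested.

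The macrophage-like cells with most Saa3 were then described, also a choice made after values had been seen. On HFD the top 10%, 53 cells, held 391 of the 525 Saa3 UMIs, or 7.38 per cell with a maximum of 39. Their stromal UMIs averaged 1.49 per cell and those of the remaining 476 cells 1.29, while their C1q UMIs, which mark macrophages, averaged 51.7 and 42.5. On LFD the top 59 cells had 12.6 Saa3 UMIs per cell with 8.98 stromal UMIs, compared with 2.19 stromal UMIs in the other 531. The top cells were also deeper, with medians of 8327 against 6067 total UMIs on HFD and 5037 against 4179 on LFD, and the part of depth in these differences was not tested. In the top 10% of HFD B-like cells the mean was 1.54 Saa3 UMIs with 1.79 stromal UMIs. Per stromal UMI, the HFD top 10% had 4.95 Saa3 UMIs in macrophage-like and 0.858 in B-like cells. The remaining HFD cells had 0.218 and 0.136. The split was made by Saa3 itself, which sets the top above the rest.

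**Figure D2:**
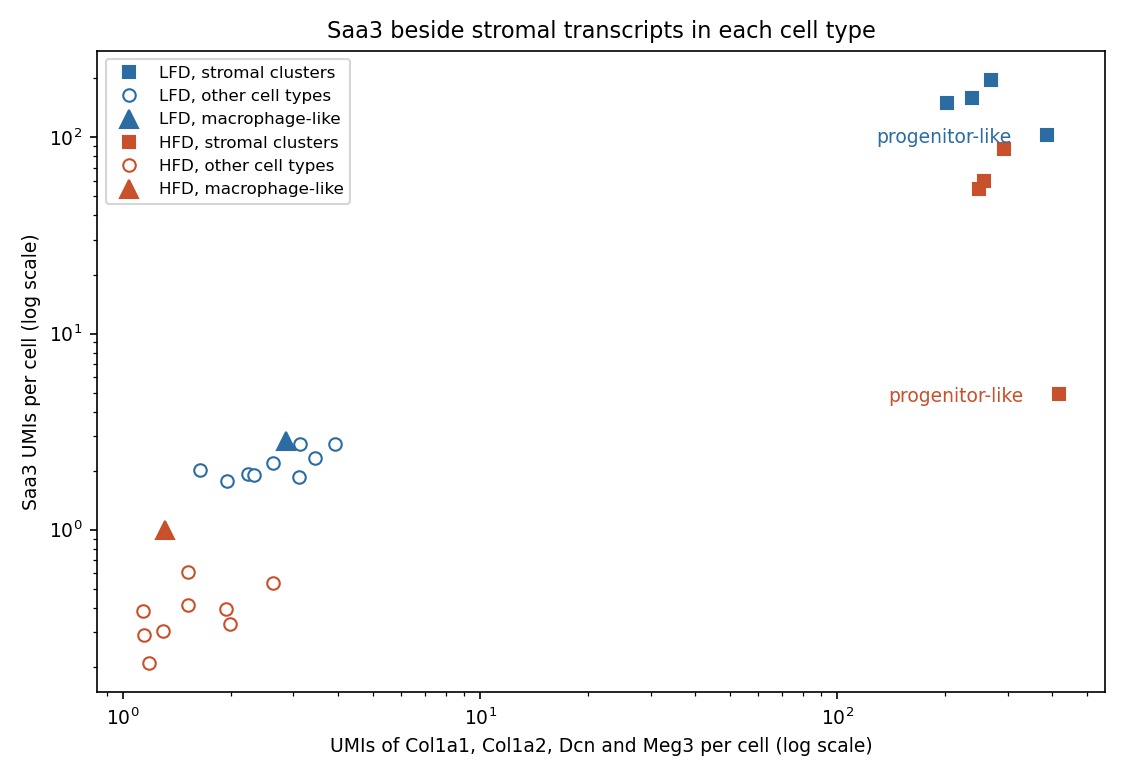
Saa3 UMIs per cell against the UMIs per cell of Col1a1, Col1a2, Dcn and Meg3 together, both on log axes, with 1 point for each cell type and diet. Progenitor-like cells on HFD have 4.92 Saa3 UMIs beside 418 stromal UMIs, and macrophage-like cells on HFD 0.992 beside 1.31.

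Among the 14 named types Lcn2 was highest in neutrophil-like cells and next highest in progenitor-like cells on both diets, and the small unnamed cluster had 680.1 and 107.8 CPM from 58 and 11 UMIs, with intervals that overlapped those of progenitor-like cells. Neutrophil-like cells had 3220.3 CPM on LFD and 637 CPM on HFD, a ratio of 0.198 (0.148 to 0.260), from 816 and 55 UMIs. Their neutrophil marker list was lower on HFD too, at 128381 and 59419 CPM, as were the B cell list (446 and 23.2) and monocyte list (805 and 278). The macrophage list was higher, at 296 and 475 CPM. The part of these shifts in the neutrophil-like Lcn2 and Hp ratios was not tested. In progenitor-like cells Lcn2 reached 570.2 CPM on LFD (539.6 to 602.0) and 88.5 on HFD (81.2 to 96.4), which makes the ratio 0.155 (0.140 to 0.172). In the Wt1+ clusters levels were far lower. The keratin-low Wt1+ cluster had 52.8 and 24.2 CPM, a ratio of 0.459 (0.416 to 0.506), mesothelial-like cells 44.8 and 20.1 CPM, a ratio of 0.448 (0.404 to 0.496), and cycling mesothelial-like cells 32.5 and 15.3 CPM, a ratio of 0.470 (0.395 to 0.556). The 3 Wt1+ ratios had overlapping intervals and the progenitor-like ratio lay below them, although with cells gated on marker UMIs it was 0.343 (0.263 to 0.444), which overlapped the gated Wt1+ ratio of 0.429 (0.404 to 0.454). As described for Saa3, the gated groups differ from the clusters, and the Wt1+ gate can take in progenitor-like cells. In macrophage-like cells there were 19 Lcn2 UMIs on LFD and 4 on HFD, a ratio of 0.153 (0.0379 to 0.461), and B-like cells had 4 and 0.

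S100a8 and S100a9 encode the chief cytosolic proteins of neutrophils. In progenitor-like cells they summed to 75.9 CPM on LFD and 0.502 CPM on HFD, beside 56.5 and 1.93 CPM in B-like and 118.4 and 35.01 CPM in macrophage-like cells. The other stromal clusters had less on LFD, with 7.31 and 11.3 CPM in the keratin-low Wt1+ cluster and 6.14 and 2.30 CPM in mesothelial-like cells. The pair was thus lower on HFD together with Lcn2 in progenitor-like cells, and its part in the Lcn2 ratio was not tested. For each 100 UMIs of this pair on LFD there were 2.71 Lcn2 UMIs in neutrophil-like and 751 in progenitor-like cells. On HFD progenitor-like cells had 529 Lcn2 UMIs and 3 of the pair, too few for such a ratio. The whole neutrophil marker list of 8 genes summed to 239.9 and 97.4 CPM in progenitor-like cells, with none at 0, and to 128381 and 59419 CPM in neutrophil-like cells. The B cell list, of 9 genes, summed to 24.6 and 5.69 CPM in progenitor-like cells with 1 at 0, and the macrophage list, of 10 genes, to 56.6 and 66.1 CPM with none at 0. The hepatocyte list of 5 genes summed to 22.8 and 6.03 CPM with 2 at 0. The mature adipocyte list of 6 genes was lower on HFD as well, summing to 34.6 and 13.2 CPM in progenitor-like cells with 2 at 0, 32.8 and 9.75 CPM in the keratin-low Wt1+ cluster with none at 0, 9.50 and 5.41 CPM in mesothelial-like and 17.1 and 6.67 CPM in cycling mesothelial-like cells with 1 at 0 in each. The part of this shift in the ratios of the acute phase genes was not tested.

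Among the named types Hp was also highest in neutrophil-like cells on LFD, at 2163 CPM, and stood at 475 CPM on HFD, where its interval from 41 UMIs overlapped that of progenitor-like cells. The ratio was 0.219 (0.156 to 0.302). Progenitor-like cells followed with 993 and 383 CPM, a ratio of 0.386 (0.364 to 0.409). The keratin-low Wt1+ cluster had 509 and 51.6 CPM, a ratio of 0.101 (0.0953 to 0.108), mesothelial-like cells 205 and 31.6 CPM, a ratio of 0.154 (0.143 to 0.165), and cycling mesothelial-like cells 253 and 20.3 CPM, a ratio of 0.0803 (0.0704 to 0.0912). For Hp the order of the ratios was therefore the opposite of that for Saa3 and Lcn2, with the progenitor-like ratio nearer 1 than the Wt1+ ratios. Over all Wt1+ clusters the Hp ratio was 0.103, and it was 0.178 (0.172 to 0.184) with cells gated on marker UMIs, where the progenitor-like ratio was 0.383. The Wt1+ gate can take in progenitor-like cells with a Wt1 UMI. Those cells had 1635 Hp UMIs on LFD and 1970 on HFD, beside 26642 and 2223 in all Wt1+ clusters. Their part in the gated ratio was not tested. The keratin-low Wt1+ cluster held 56.6% of the Hp UMIs of the LFD library and 20.2% on HFD, and progenitor-like cells 7.33% and 41.9%. These shares also follow the cells captured. Progenitor-like cells had 2265 Hp UMIs in 215 LFD cells and 2291 in 574 HFD cells. The keratin-low Wt1+ cluster had 17494 in 3013 and 1106 in 1292. Macrophage-like cells had 390.0 CPM on LFD (366 to 415) and 218 on HFD (202 to 234), so their ratio was 0.558 (0.507 to 0.615), and endothelial-like cells 82.5 and 42.5 CPM, a ratio of 0.515 (0.416 to 0.634). B-like cells had 14.0 and 3.54 CPM, so Hp in macrophage-like cells was well above the B-like level. Thinned shares with an Hp UMI were 34.1% and 19.3% of macrophage-like cells and 3.39% and 0.581% of B-like cells.

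Saa1 and Saa2 were near the limit of detection. Saa1 gave 137 UMIs on LFD and 44 on HFD, all in the 4 stromal clusters. These were 51 and 8 in the keratin-low Wt1+ cluster, 51 and 25 in mesothelial-like, 21 and 1 in cycling mesothelial-like and 14 and 10 in progenitor-like cells. Saa2 gave 23 and 6 UMIs, of which progenitor-like cells had 5 and 3. The 10 other named types held none of either gene, which leaves a low level possible in each type and library.

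**Figure D3:**
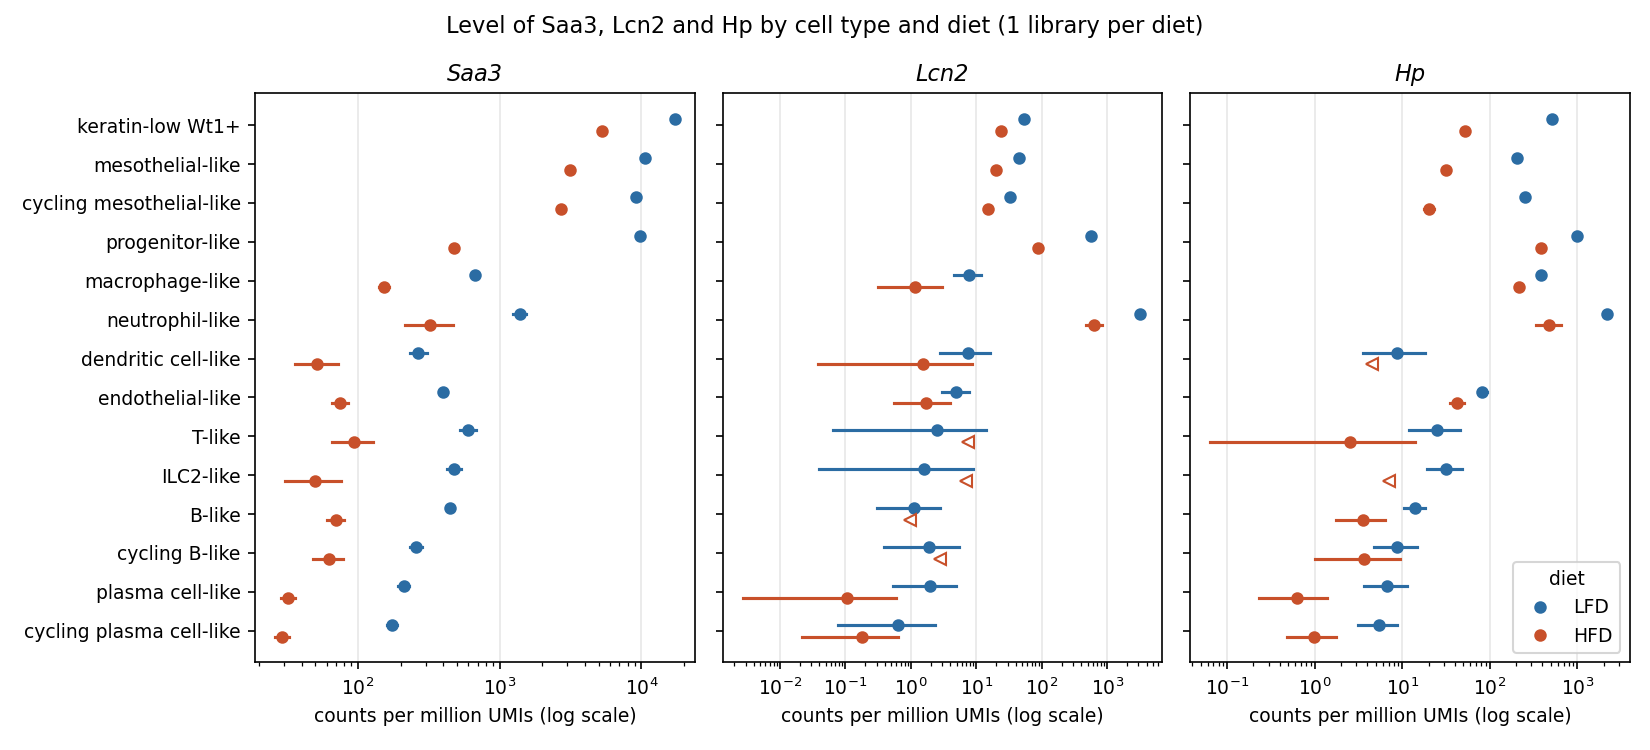
Levels in CPM, on a log axis, of the acute phase genes by cell type and diet. Lines are exact Poisson intervals, and open triangles pointing left mark types without a UMI, drawn at the level 3 UMIs would give. Saa3 is highest in the keratin-low Wt1+ cluster and Lcn2 in neutrophil-like cells.

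Saa3, Lcn2 and Hp had lower levels on HFD in each of the 14 named types, with intervals that did not all lie below 1. Saa3 was at least 2-fold lower on HFD in 14 of 14 named types, where between 2.15% and 10.7% of all genes with at least 20 UMIs were as low. Lcn2 was lower in 14 of 14, and at least 2-fold lower in 7 of the 7 types with at least 20 UMIs of it. Its interval lay below 1 in 8 of the 14, and the others rest on few UMIs, such as 1 against 0 in T-like and ILC2-like cells and 2 against 2 in cycling plasma cell-like cells. Hp was lower in 14 of 14, and at least 2-fold lower in 9 of 11 with enough UMIs, the exceptions being macrophage-like and endothelial-like cells. Types of a library share its suspension, so these 14 are not independent readings. Of all genes counted, 2.71% were at least 2-fold lower on HFD in progenitor-like cells, 4.39% in the keratin-low Wt1+ cluster, 2.15% in mesothelial-like, 2.37% in cycling mesothelial-like and 2.27% in macrophage-like cells. The share was 10.7% in neutrophil-like, 2.75% in endothelial-like, 3.88% in dendritic cell-like, 2.88% in T-like and 6.06% in ILC2-like cells. It was 3.23% in B-like, 2.3% in cycling B-like, 4.69% in plasma cell-like and 2.5% in cycling plasma cell-like cells. The median gene stood 0.11 log2 units above equality in progenitor-like cells, 0.07 in the keratin-low Wt1+ cluster, 0.13 in mesothelial-like, 0.13 in cycling mesothelial-like and 0.08 in macrophage-like cells. Nothing is read from the members' counts against these shares, since the same contrast chose them.

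**Figure D4:**
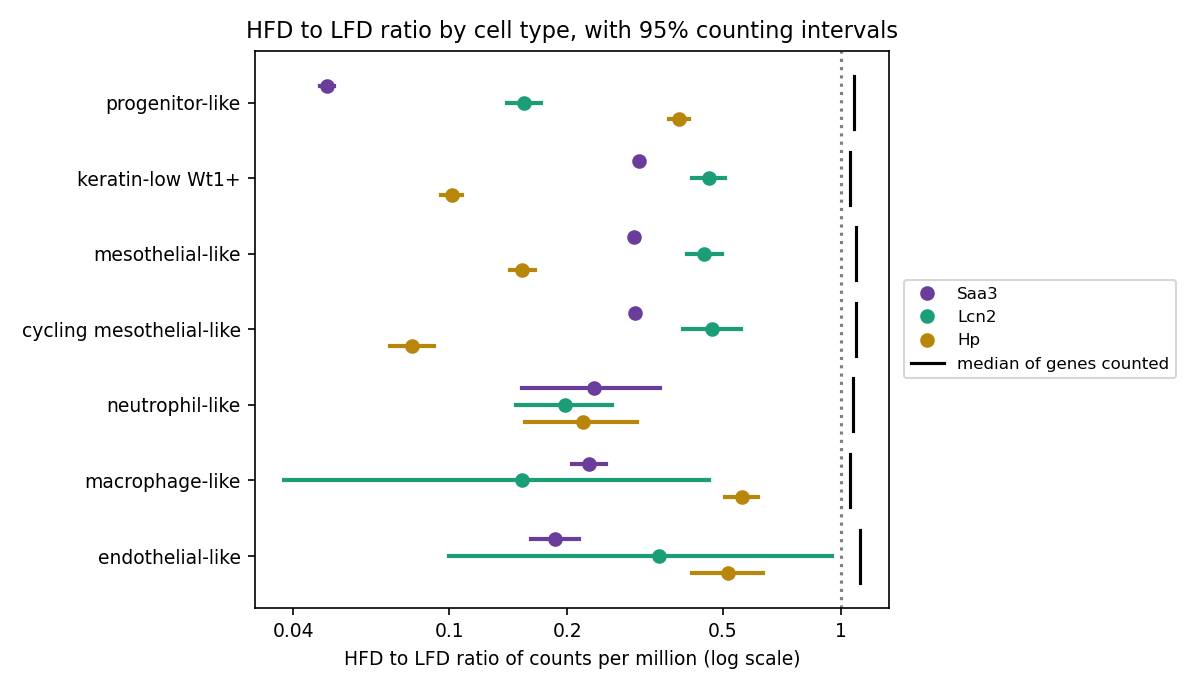
HFD to LFD ratio of Saa3, Lcn2 and Hp by cell type, on a log axis, with exact 95% intervals that cover counting error only. Black bars give the median gene of the type. Only the stromal, neutrophil-like, macrophage-like and endothelial-like types are drawn. All of these points lie left of 1, with Saa3 in progenitor-like cells lowest at 0.0487.

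Within progenitor-like cells the genes were detected together in a larger share of LFD than of HFD cells. Saa3, Lcn2 and Hp were all detected in 57.2% of LFD and 13.8% of HFD cells, and none of them in 0.930% and 26.3%. Each gene alone was also found in fewer HFD cells, Lcn2 in 63.3% and 23.2% and Hp in 83.3% and 53.1%. A lower joint share on HFD would therefore be found even with no link between the genes. Of HFD cells with an Lcn2 UMI, 101 of 133, or 75.9%, also had a Saa3 UMI, beside 49.0% of all HFD progenitor-like cells. On LFD nearly all cells had Saa3, 99.1%, so its joint detection says little there. Cells above the median for Saa3 had 943 CPM of Lcn2 on LFD and cells at or below it 203 CPM. On HFD, where the median was 0, the split is between cells with and without a Saa3 UMI, and it gave 144 and 24.2 CPM of Lcn2 at medians of 11192 and 9186 total UMIs. The parts are therefore not alike on the 2 diets, but within each diet Lcn2 was higher in the cells with more Saa3.

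Dpp4 and Pi16 mark the less committed adipose progenitors, and a UMI of either was found in 56 of 215 LFD and 335 of 574 HFD progenitor-like cells. The make-up of the cluster therefore differed between the libraries, so the ratios were taken within each part. In cells with such a UMI they were 0.0490 for Saa3, 0.160 for Lcn2 and 0.365 for Hp, and in cells without it 0.0584, 0.218 and 0.437. Among cells with a Wt1 UMI the ratios were 0.0467, 0.166 and 0.463, and among cells without it 0.0557, 0.111 and 0.188. The Saa3 ratio was therefore between 0.0467 and 0.0584 in all 4 parts. Cells were also picked one by one from all clusters, for Pdgfra with Pi16, Dpp4 or Dpt and for no Wt1, Upk3b, Ptprc or Pecam1 UMI. This gave 107 LFD and 111 HFD cells, with ratios of 0.0847 for Saa3 and 0.343 for Lcn2. Only 46 LFD progenitor-like cells lacked a Wt1 UMI, so the picked LFD cells include cells of other clusters. They are not a stricter part of the progenitor-like cluster.

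The other acute phase genes had median ratios below that of all genes in the 4 types compared here. Over all genes counted the median ratio was 1.08 in progenitor-like cells, 1.05 in the keratin-low Wt1+ cluster, 1.09 in mesothelial-like and 1.06 in macrophage-like cells, and 7.07%, 2.92%, 3.06% and 4.07% of genes were at least 2-fold higher on HFD in the same order. At least 2-fold lower were 2.71%, 4.39%, 2.15% and 2.27%, and these shares are the background for the list counts that follow. Of 27 listed genes, 12 had at least 20 UMIs in progenitor-like cells, and 3 were at least 2-fold lower and 0 higher, with a median ratio of 0.669. The keratin-low Wt1+ cluster had 6 of 15 lower with a median of 0.713, mesothelial-like cells 5 of 15 with 0.631, and macrophage-like cells 2 of 10 with 0.617, with 0 higher in each. Timp1, an inhibitor of matrix metalloproteinases, had ratios of 0.345 in progenitor-like cells, 0.345 in the keratin-low Wt1+ cluster and 0.408 in mesothelial-like cells. Serpina3g, a serine protease inhibitor, had 0.238, 0.314 and 0.283 in the same order. The metallothioneins Mt1 and Mt2, which bind zinc, were at 0.322 and 0.389 in the keratin-low Wt1+ cluster and at 0.405 and 0.364 in mesothelial-like cells. Hpx, which encodes the haem carrier hemopexin, was at 0.267 and 0.194 there, and the protease inhibitor A2m at 0.275 in the keratin-low Wt1+ cluster. Cd14, a co-receptor for lipopolysaccharide, had 43 and 35 UMIs in progenitor-like cells, a ratio of 0.311.

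Other genes of this list stayed within 2-fold in the 3 stromal types named. Complement C3 had ratios of 0.883 in progenitor-like cells, 0.713 in the keratin-low Wt1+ cluster, 0.781 in mesothelial-like and 0.309 in macrophage-like cells. Complement factor B, encoded by Cfb, was at 0.649, 0.976, 0.809 and 0.439 in the same order. In macrophage-like cells the progenitor marker list was lower on HFD as well, at 949 and 385 CPM. Its part in the macrophage-like C3 and Cfb ratios was not tested. Serpina3n, another serine protease inhibitor, had 0.656, 0.686, 0.517 and 0.545 in these 4 types. Ptx3, which encodes a soluble pattern recognition protein, had 0.681, 0.792 and 0.657 in the 3 stromal types.

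The cytokines that induce these genes did not share one direction. Il6 had ratios of 1.42 (1.28 to 1.58) in progenitor-like cells, 1.37 (1.32 to 1.42) in the keratin-low Wt1+ cluster and 1.41 (1.34 to 1.48) in mesothelial-like cells, and 1.38 (0.936 to 2.07) in macrophage-like cells. Il1b in macrophage-like cells was at 612 CPM on LFD and 300 CPM on HFD, a ratio of 0.490 (0.452 to 0.530), and Il1a at 0.473 (0.283 to 0.780). Tnf there was at 1.10 (0.959 to 1.27). Il1b was also among the leading genes of neutrophil-like cells, and in macrophage-like cells the neutrophil list of 8 genes summed to 183 CPM on LFD and 63.9 CPM on HFD and the monocyte list of 6 genes to 966 and 421 CPM, with none at 0. The part of these shifts in the values was not tested. Il1b and Tnf had at most 34 UMIs per library in the 3 stromal clusters named. Lif, an IL6 family cytokine, was at 3.04 (2.40 to 3.87) in the keratin-low Wt1+ cluster. Of the 9 listed cytokines, 0 higher and 0 lower of 3 counted passed 2-fold in progenitor-like cells, 1 and 1 of 6 in the keratin-low Wt1+ cluster, 0 and 1 of 4 in mesothelial-like and 0 and 2 of 5 in macrophage-like cells. Over all genes the shares higher and lower were 7.07% and 2.71% in progenitor-like cells, 2.92% and 4.39% in the keratin-low Wt1+ cluster, 3.06% and 2.15% in mesothelial-like and 4.07% and 2.27% in macrophage-like cells, and with so few genes counted nothing is read from the list.

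The receptors and transcription factors of the pathway stayed mostly within 2-fold, as did most genes, since in each of the 4 types no more than 7.07% were at least 2-fold higher and no more than 4.39% at least 2-fold lower. Among 13 receptor and signalling genes, 1 was at least 2-fold higher in progenitor-like cells, namely the IL6 receptor gene Il6ra at 2.37 (1.36 to 4.40), and 1 lower in macrophage-like cells, the oncostatin M receptor gene Osmr, with 20 and 13 UMIs. None passed 2-fold in the keratin-low Wt1+ or mesothelial-like clusters. The IL1 receptor gene Il1r1 was at 0.669 in progenitor-like cells but at 1.36 and 1.22 in these 2 clusters. Of 12 transcription factor and feedback genes, Nfkb1 at 2.20 and Socs3 at 0.390 passed 2-fold in the keratin-low Wt1+ cluster, and none did in the other 3 types. Socs3, a feedback inhibitor of IL6 signalling, was also at 0.595 in progenitor-like, 0.632 in mesothelial-like and 0.686 in macrophage-like cells. Cebpb was at 1.43, 1.49, 1.33 and 1.37 in the 4 types, in the order progenitor-like, keratin-low Wt1+, mesothelial-like and macrophage-like. Cebpd was at 0.755, 0.606, 0.989 and 1.04, and the NF-kB inhibitor gene Nfkbia at 0.820, 1.05, 1.10 and 1.27. Nfkbiz, which encodes a nuclear NF-kB cofactor, was at 1.02, 0.974, 1.14 and 1.28.

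**Figure D5:**
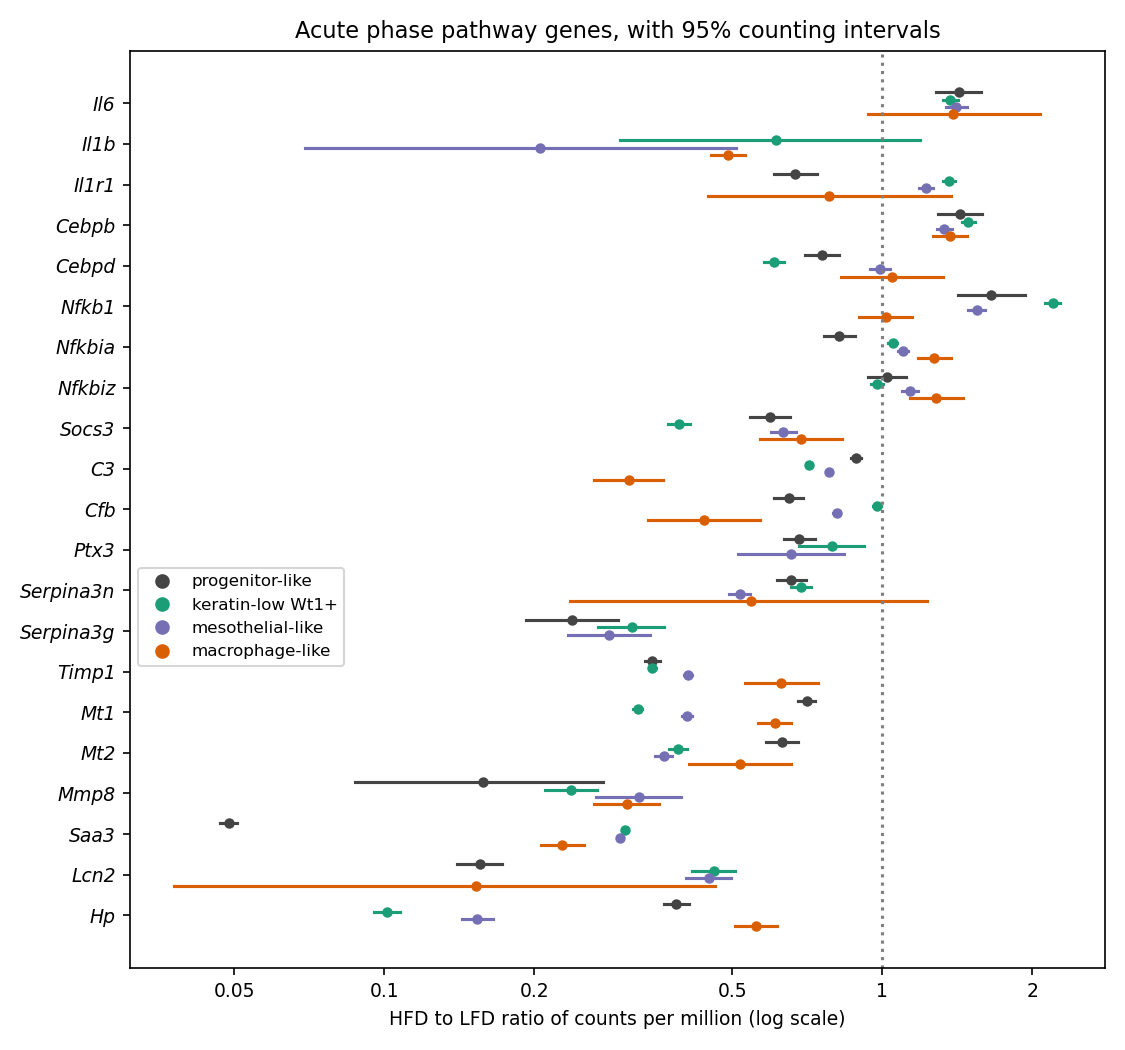
HFD to LFD ratio of pathway genes in 4 cell types, on a log axis, with exact 95% intervals for counting error. Il6 and Cebpb lie to the right of 1 in all 4 types, while Saa3 and Socs3 lie to the left.

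Receptors and partners of the acute phase proteins are given by their ratios, whose differences between types were not tested. Lrp2, which encodes the endocytic lipocalin 2 receptor megalin, was at 3.54 in the keratin-low Wt1+ cluster and 3.00 in mesothelial-like cells. Mmp9, whose product forms a complex with lipocalin 2, was at 0.130 in the former, from 123 and 10 UMIs, and at 0.147 in macrophage-like cells. In macrophage-like cells the serum amyloid A receptor gene Fpr2 was at 0.320 and its relative Fpr1 at 0.495, whereas the scavenger receptor gene Cd36 was at 2.12. These values stand beside the same lower neutrophil and monocyte marker sums as Il1b. Hmox1, which encodes the haem-degrading enzyme, was at 2.76 in progenitor-like and 0.649 in macrophage-like cells. Among 11 such genes, 1 was higher and 2 lower of 5 counted in progenitor-like cells, 1 and 1 of 8 in the keratin-low Wt1+ cluster, 1 and 1 of 7 in mesothelial-like and 1 and 3 of 7 in macrophage-like cells. The shares over all genes were 7.07% higher and 2.71% lower, 2.92% and 4.39%, 3.06% and 2.15%, and 4.07% and 2.27% in that order. Of 6 neutrophil granule genes, Mmp8 was at 0.158, 0.237, 0.325 and 0.307 in the same 4 types, and Mpo at 0.496 in mesothelial-like cells.

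For the 12 types that had 100 or more cells on each diet, which leaves out neutrophil-like and dendritic cell-like cells, 14169 genes were ranked by the likeness of their log2(CPM + 1) profile over 24 type and diet values. The profiles most like Saa3 were those of Cxcl5 (Pearson r = 0.970), Chl1 (0.953), Timp1 (0.949), Clu (0.936) and Cfb (0.930). Cxcl5 encodes a neutrophil-attracting chemokine. Those most like Lcn2 were Serpina3n (0.955), Lox (0.950), C3 (0.950), Serping1 (0.950) and Col1a2 (0.950). Saa3 and Lcn2 correlated with each other at 0.867. The points share 2 libraries, and stromal types set most of the range, so these values are descriptions without a p. Like Saa3, Cxcl5 was lower on HFD in progenitor-like cells, at 518 and 62.1 CPM, and by less in the keratin-low Wt1+ cluster, at 648 and 463 CPM.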

How the data were processed

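Droplet single-cell RNA sequencing was done on sorted eYFP+ SVF cells, with 1 library per diet. The deposited matrices hold UMI counts per gene and barcode, not normalized, and no cell annotation was used. The submitters' processing notes name Cell Ranger 4.0.0, STAR, Seurat 4.1.0, bcl2fastq 2.17.1.14 and mm10. Doublet removal and cell type names were rebuilt here, so they may differ from the study's.

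Barcodes with 500 to 40000 UMIs, at least 100 genes and under 12.5% mitochondrial UMIs were kept, giving 10216 LFD and 8537 HFD cells. The top 0.8% per 1000 barcodes by Scrublet score (scanpy 1.11.5, Python 3.11.15) was removed, 922 and 658 cells. Libraries were joined by Seurat 5.3.0 anchors (R 4.3.3) on 1956 variable genes, after the listed acute phase genes were taken out, with 30 dimensions and resolution 0.3. Clusters were named from marker lists, with the best list requiring at least 3 markers and 50% of the list, each in at least 10% of cells and above 2 times the median cluster. Counts were summed per type and library and divided by total UMIs. Levels have exact Poisson, ratios exact conditional binomial and shares Clopper-Pearson intervals (scipy 1.17.1). With 1 library per diet no test was possible. The interval code was tested on simulated counts. All 5 members are named. Genes of the lists are named where they had at least 50 UMIs and were at least 2-fold apart in a progenitor-like, Wt1+ or macrophage-like cluster, and Il6, Il1b, Tnf, Il1r1, Cebpb, Cebpd, Nfkbia, Nfkbiz, Socs3, C3, Ptx3 and Serpina3n in any case. Osmr was named after its values were seen. For Saa3 and Lcn2 the 5 genes with the most similar profile are named. The members, lists and markers were chosen with earlier results of these data known. Gene positions are from GENCODE M21, in which 32235 of 32285 gene IDs were found, and promoter sequences from RefSeq, which matched 4 of 5 members. Protein sequences were not used here.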

Additional observations from a re-analysis of the deposited data

Results flagged for a closer look

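Hmox1, which encodes haem oxygenase and was listed as a partner of haptoglobin, stood on opposite sides of 1 in different cell types. Its HFD to LFD ratio was 2.76 in progenitor-like cells, from 66 and 478 UMIs, and 0.649 in macrophage-like cells. With 1 library per diet the difference between these types was not tested, and the margin used to pick it was set after values had been seen.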

How the results depend on the processing

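No paired analysis was possible because each diet had 1 library and no test was run. The HFD to LFD ratios of Saa3 and Lcn2 in progenitor-like, all Wt1+ and macrophage-like cells, which were 0.0487, 0.285 and 0.228 for Saa3 and 0.155, 0.448 and 0.153 for Lcn2, gave 59 values under 9 other settings and 1 more added after seeing the data. All 59 were below 1 (0.0428 to 0.477), 37 stayed within the counting interval and 22 moved out of it. The values below follow that order of cell types. The mean of single-cell CPM gave 0.0467, 0.289 and 0.199 for Saa3, and at least 2000 UMIs with under 7.5% mitochondrial UMIs gave 0.282 for Saa3 in Wt1+ cells. With doublets kept Saa3 was at 0.0588, 0.278 and 0.157 and Lcn2 at 0.177 in progenitor-like cells. Cells gated on marker UMIs, taken from all clusters, gave 0.0847, 0.270 and 0.198 for Saa3 and 0.343 for Lcn2 under the progenitor gate. The progenitor and macrophage gates held fewer cells than the clusters of that name. Size factors gave 0.0464 and 0.266 for Saa3 in progenitor-like and Wt1+ cells and 0.418 for Lcn2 in Wt1+ cells. Free RNA subtracted as CPM gave 0.0465 and 0.287 for Saa3 in these 2 groups, and, subtracted as UMIs per cell (the added alternative), 0.287 in Wt1+ and 0.477 in macrophage-like cells. Without the 10 barcodes richest in the gene Saa3 was at 0.0428, 0.281 and 0.161, and Lcn2 in macrophage-like cells gave no value. Other causes of these moves were not tested. Of 155 further values for other member ratios 154 were below 1, the exception being Saa2 in mesothelial-like cells at 1.48 by the mean of single-cell CPM, from 1 UMI in each library. Genes at least 2-fold lower numbered 304 in progenitor-like cells, and 90 or 1879 with at least 100 or at least 1 UMI required in place of 20. They numbered 608 in the keratin-low Wt1+ cluster (265 or 3144), 294 in mesothelial-like (108 or 2291) and 222 in macrophage-like cells (64 or 1716). Lcn2 in macrophage-like cells and Saa1 and Saa2 anywhere are limited by depth.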
